A study of Mus musculus with 6 samples.

Results

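Messenger RNA levels of 10 transcription factor genes were followed in primary airway basal cells of mouse trachea: the p53 family genes Trp63, Trp73 and Trp53, and the Krüppel-like factor genes Klf3, Klf4, Klf5, Klf6, Klf7, Klf10 and Klf13. They were taken by symbol from a table of 56748 genes, each symbol matched 1 gene, and all 10 were among the 15704 genes tested, those whose mean reached 10 normalized counts. A normalized count is a read count divided by the authors' scaling factor for its library. The cells were wild-type tracheal epithelial cells, labelled as primary basal stem cells, after 4 days in culture with small molecules. In 3 libraries the cells had received UK-5099, which inhibits the mitochondrial pyruvate carrier. The other 3 libraries came from cells given 3 inhibitors together: the kinase inhibitor Y-27632, the TGF-beta type I receptor inhibitor A8301 and the BMP type I receptor inhibitor DMH-1. There was no untreated group among the samples, so each difference lies between the inhibitor conditions. The labels give no age or sex, do not state if Y-27632 was present with UK-5099, and do not say whether each replicate was its own animal or culture. The p-values therefore rest on the spread between these libraries alone, which may be technical.

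The p53 family proteins bind DNA as tetramers through a shared core domain. p53 stops the cell cycle or triggers death after damage. p63, mostly as a form that lacks the transactivating amino terminus, maintains the basal layer of stratified and pseudostratified epithelia, and p73 is needed for multiciliated cells of the airway. Krüppel-like factors share 3 zinc fingers at the carboxyl terminus that bind CACCC and GC boxes, and their amino termini recruit different partners. KLF4, KLF5, KLF6 and KLF7 act mainly as activators, KLF3 recruits the corepressor CtBP, and KLF10 and KLF13 recruit the corepressor SIN3. In squamous epithelium KLF4 promotes late differentiation and barrier formation, whereas KLF5 is strongest in proliferating basal layers. The table gives 1 value per gene, so isoforms of Trp63 and Trp73 that start at different promoters were not separated.

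Depth and cell identity were as follows. Recovered reads ranged from 19909589, in UK-5099 replicate 3, to 27037795, in 3-inhibitor replicate 2. Of 9 basal cell markers all were tested, 7 were higher with UK-5099 and Ngfr was lower, and their summed level ran from 304273 to 329510 normalized counts with UK-5099 and from 133153 to 145742 with the 3 inhibitors. Of 6 secretory markers 3 were tested and lower, and their summed level ran from 1119 to 1738 with UK-5099 and from 4631 to 5006 with the 3 inhibitors. Beside these counts, 27.2% of all genes tested were higher with UK-5099 and 26.6% lower. Of 6 endothelial markers 2 were tested and lower, of 6 leukocyte markers 1 was (Muc5b of the secretory markers, Tie1 and Cd74 passed the low filter only through the 3-inhibitor group), and none of the tested multiciliated (2 of 8) and muscle (1 of 4) markers was called. Summed levels of multiciliated cells (71.9 to 90.4 and 70.6 to 122), endothelium (51.8 to 65.9 and 157 to 188), leukocytes (6.10 to 9.74 and 40.2 to 60.8), fibroblasts (6.50 to 14.6 and 8.25 to 10.05) and muscle (13.0 to 30.4 and 22.3 to 28.3), in the same order of groups, were low in both groups. Cdh5 and Emcn of endothelium, C1qa of leukocytes, and Col1a2, Col3a1 and Lum of fibroblasts were at 0 in all libraries. With UK-5099, Xist was 1.70-fold higher, and Y-linked genes were 1.52-fold (Uty) to 2.15-fold (Kdm5d) lower, with Ddx3y and Eif2s3y between. The part of these differences in the results below was not tested.

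Since KLF and SP proteins bind CACCC and GC boxes, the promoters of the KLF genes themselves were read for these boxes. RefSeq promoter sequences on GRCm38.p6, an earlier build than the GRCm39 named for the deposited values, were at hand for 7 of the 10 genes: Trp73 (with 2 start sites), Trp53, Klf3, Klf4, Klf6, Klf7 and Klf13. The 250 bases before the RefSeq start site were searched. For the 5 KLF genes they are shown, less any bases that GENCODE M21 counts as exon, 5′ to 3′, because 3 of these genes (Klf3, Klf4 and Klf6) were lower with UK-5099 and the other 2 were not told apart between the groups. Capitals mark CACCC or its reverse complement GGGTG and GGGCGG or its reverse complement CCGCCC, which overlap each other in places.
Klf3 (GRCm38.p6, chr5:64803271-64803387, plus strand): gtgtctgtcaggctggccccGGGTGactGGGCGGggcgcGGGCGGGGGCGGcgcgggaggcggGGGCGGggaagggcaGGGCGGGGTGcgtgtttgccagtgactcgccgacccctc
Klf4 (GRCm38.p6, chr4:55532476-55532725, minus strand): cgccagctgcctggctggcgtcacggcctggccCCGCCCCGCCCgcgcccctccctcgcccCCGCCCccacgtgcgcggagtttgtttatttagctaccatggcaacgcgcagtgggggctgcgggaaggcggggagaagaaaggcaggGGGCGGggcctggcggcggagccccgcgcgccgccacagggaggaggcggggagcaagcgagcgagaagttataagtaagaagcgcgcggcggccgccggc
Klf6 (GRCm38.p6, chr13:5861239-5861481, plus strand): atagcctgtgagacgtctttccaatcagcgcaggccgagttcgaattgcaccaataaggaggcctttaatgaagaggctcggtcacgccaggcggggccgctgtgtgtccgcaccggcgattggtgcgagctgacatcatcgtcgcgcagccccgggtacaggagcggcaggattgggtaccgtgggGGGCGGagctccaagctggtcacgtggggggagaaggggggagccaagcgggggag
Klf7 (GRCm38.p6, chr1:64121492-64121639, minus strand): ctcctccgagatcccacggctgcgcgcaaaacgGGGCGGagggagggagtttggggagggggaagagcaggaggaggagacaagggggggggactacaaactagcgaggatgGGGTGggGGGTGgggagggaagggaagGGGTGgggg
Klf13 (GRCm38.p6, chr7:63938916-63939165, minus strand): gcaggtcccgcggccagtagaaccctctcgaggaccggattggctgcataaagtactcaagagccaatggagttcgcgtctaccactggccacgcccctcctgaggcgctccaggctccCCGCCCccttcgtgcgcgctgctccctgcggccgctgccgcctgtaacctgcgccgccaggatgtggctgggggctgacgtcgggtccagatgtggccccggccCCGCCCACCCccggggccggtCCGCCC

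The Klf3 window held 6 GC boxes (GGGCGG on either strand) and 5 CACCC boxes, of which 5 and 2 lie in the 117 bases printed. At least 6 GC boxes were present in 0.9% of 32851 promoter windows of the same length, and at least 5 CACCC boxes in 0.7%. The Klf4 window held 4 GC boxes, a number reached by 4.1% of windows, and 0 CACCC boxes. Klf6 had 1 GC box and 0 CACCC boxes but 4 matches to CCAAT on either strand. Any match to CCAAT was present in 33.8% of windows, and the share with at least 4 was not counted. Klf13 held 3 GC boxes, a number reached by 8.5% of windows, and 1 CACCC box. Klf7 held 1 GC box and 3 CACCC boxes, and at least 3 CACCC boxes were present in 6.9% of windows. Any CACCC box was present in 52.0% of windows and any GC box in 32.7%. GC content was 78.4% for Klf3, 74.0% for Klf4, 71.6% for Klf13, 64.8% for Klf6 and 59.2% for Klf7, against a median of 52.4%. The Trp53 window had 0 GC boxes and 1 CACCC box, and the Trp73 windows had 1 and 0 at one start site and 0 and 2 at the other, where GC content was 77.2%. These matches describe letters only.

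Of the 10 genes, 5 differed between the groups in the limma fit over all genes tested (adjusted p under 0.05, Benjamini-Hochberg), as did 53.8% of all genes tested, so the number of called genes among the 10 was near the background. Trp63 and Klf10 were higher with UK-5099, where 27.2% of all genes were higher, and Klf3, Klf4 and Klf6 were lower, where 26.6% were lower. Libraries of the groups did not overlap for these same 5 genes, against 60.8% of all genes tested. Of the 10 genes 0 reached a 2-fold difference, which 10.1% of all genes tested did with an adjusted p under 0.05. The median log2 fold change, UK-5099 minus 3 inhibitors, was 0.02 over the 10 genes and 0.00 over all genes, and the median absolute value was 0.35 and 0.30. In bulk RNA, fewer cells of a type and less RNA per cell cannot be told apart, which holds for every value here.

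**Figure D1:**
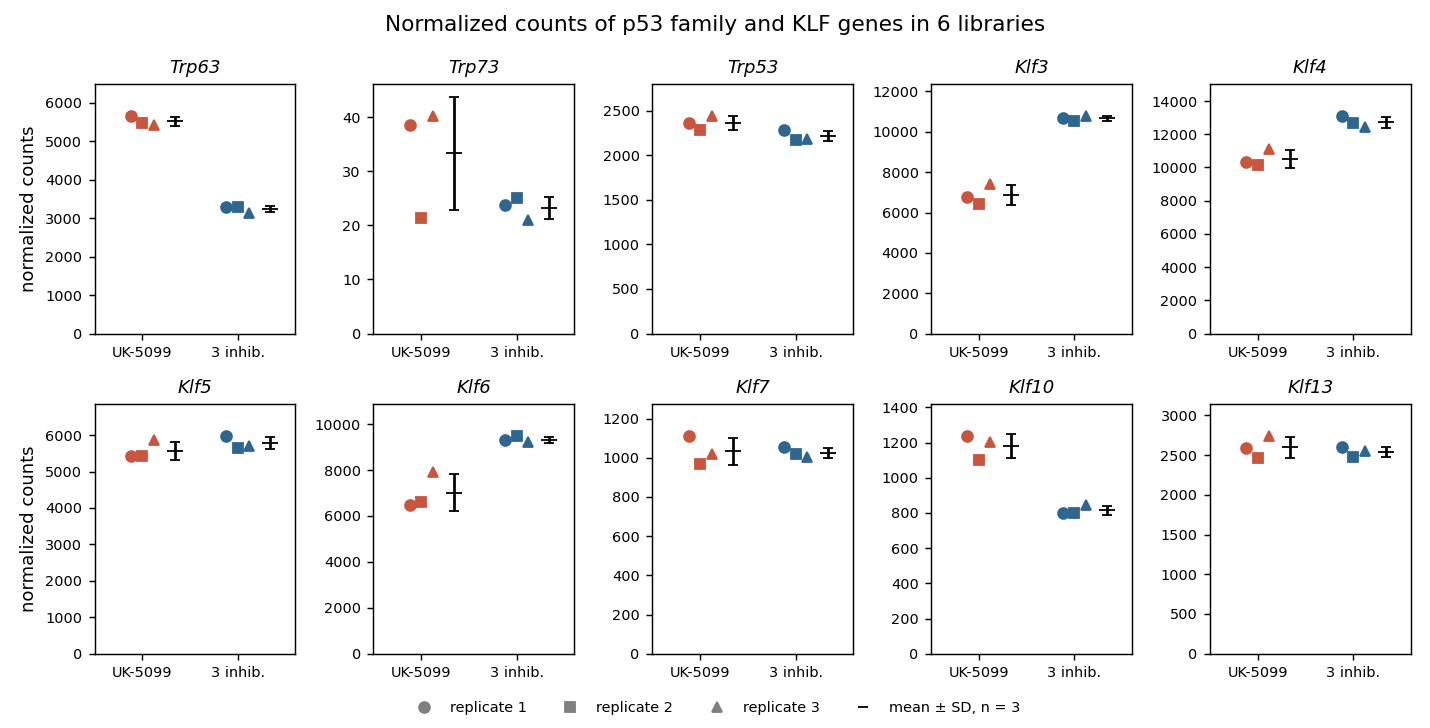
Normalized counts (y axis, from 0) of each of the 10 genes in 3 UK-5099 libraries (red) and 3 libraries of the 3 inhibitors (blue), with marker shapes for replicate numbers and bars for the mean ± SD. Groups are apart for Trp63, Klf3, Klf4, Klf6 and Klf10 and overlap for Trp73, Trp53, Klf5, Klf7 and Klf13.

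Trp63, the factor that maintains basal cells, showed the largest difference of the p53 family. It stood at 5655, 5484 and 5423 normalized counts in UK-5099 replicates 1, 2 and 3 and at 3288, 3295 and 3143 in the 3-inhibitor replicates. Every UK-5099 library was above every 3-inhibitor library, and the libraries within a group lay close together. The log2 fold change was 0.77 ± 0.04 (SE; adjusted p = 4.00e-08, limma), a 1.70-fold higher level with UK-5099, and it was above that of 92.0% of the genes tested. It ran from 0.68 to 0.80 over 16 other fits.

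Trp53 differed little. It stood at 2362, 2280 and 2436 normalized counts with UK-5099 and at 2284, 2172 and 2186 with the 3 inhibitors, so the lowest UK-5099 library lay just below the highest of the other group. On the log2 scale the difference was 0.09 ± 0.04 (SE; adjusted p = 0.105, limma), with a 95% confidence interval from -0.01 to 0.19. After upper-quartile rescaling Trp53 passed the threshold (0.12, adjusted p = 0.0175), and with libraries centred on their median its value was 0.0030, in a range of adjusted p from 0.0175 to 0.960 over the alternatives.

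Trp73, the family member of multiciliated cells, was close to the floor, with 23 to 38 recovered reads per library. It stood at 38.61, 21.35 and 40.19 normalized counts with UK-5099 and at 23.71, 25.02 and 21.01 with the 3 inhibitors. UK-5099 replicates 1 and 3 were above every other library, and replicate 2 was within the range of the 3 inhibitors. The log2 difference was 0.46 ± 0.28 (SE; adjusted p = 0.200, limma), and its 95% interval from -0.17 to 1.08 covers both no difference and a 2-fold rise. Without UK-5099 replicate 2 it was 0.74 and passed the threshold (adjusted p = 0.0324), in a range of adjusted p from 0.0324 to 0.452 over the alternatives.

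In normalized counts Trp63 was above Trp53 in all 6 libraries. Per length their order depended on the group. With exon lengths from GENCODE M21, Trp63 stood at 658 ± 14.3 normalized counts per kb of exon with UK-5099 against 386 ± 10.3 (SD, n = 3), and Trp53 at 583 ± 19.2 and 547 ± 15.1. The ratio of Trp63 to Trp53 per kb was 1.154, 1.159 and 1.073 in the UK-5099 replicates and 0.694, 0.731 and 0.693 in the others. Trp63 made up 52.8 ± 1.12% of the summed family level per kb with UK-5099 and 41.2 ± 0.731% in the other group, and Trp73 made up 0.482 ± 0.144% and 0.448 ± 0.0355% (SD, n = 3). The Trp63 ratio and the Trp63 share did not overlap between the groups (two-sided exact permutation p = 0.1, the least that 3 against 3 libraries allow). Exon length is the union of all annotated exons, so genes with several starts, Trp63 and Trp73 among them, are set low on this scale. A shorter length for Trp63 could put it above Trp53 in both groups, so their order with the 3 inhibitors holds for this length only, while the difference in the ratio between the groups does not depend on length.

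Among the KLF activators, Klf4 was the most abundant of the 10 genes per kb in both groups. Klf4, which promotes squamous differentiation, stood at 10316, 10131 and 11138 normalized counts with UK-5099 and at 13084, 12665 and 12419 with the 3 inhibitors. All UK-5099 libraries were lower. The log2 fold change was -0.27 ± 0.05 (SE; adjusted p = 0.000343, limma), or 1.21-fold lower.

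Klf6, a factor induced early after injury and growth stimulation, stood at 6490, 6616 and 7935 normalized counts with UK-5099 and at 9311, 9466 and 9206 with the 3 inhibitors. The groups were apart, with UK-5099 replicate 3 nearest to the other group. This gave a log2 fold change of -0.42 ± 0.07 (SE; adjusted p = 0.000232, limma), or 1.34-fold lower, and -0.51 without that replicate.

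Klf5, the factor of proliferating basal layers, did not follow them. It stood at 5417, 5436 and 5861 normalized counts with UK-5099 and at 5963, 5659 and 5705 with the 3 inhibitors, with UK-5099 replicate 3 inside the range of the other group. The log2 difference was -0.05 ± 0.04 (SE; adjusted p = 0.347, limma), with a 95% interval from -0.15 to 0.04. It passed the threshold without UK-5099 replicate 3 (-0.09, adjusted p = 0.0499) and with libraries centred on their median (-0.14, adjusted p = 0.0169), in a range of adjusted p from 0.0169 to 0.675.

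Klf7 was level between the groups, at 1109, 968.9 and 1019 normalized counts with UK-5099 and 1054, 1019 and 1005 with the 3 inhibitors. The log2 fold change was 0.01 ± 0.06 (SE; adjusted p = 0.929, limma), with a 95% interval from -0.12 to 0.14. The annotation places a noncoding gene, Gm26649, on the opposite strand over part of the Klf7 exons, and without a stated strand setting reads from the 2 genes cannot be told apart.

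Klf3, which recruits CtBP and represses transcription, had the largest fall of the 10 genes. It stood at 6753, 6426 and 7432 normalized counts with UK-5099 and at 10703, 10534 and 10773 with the 3 inhibitors. The gap between the groups was several times the spread within either. The fitted log2 difference was -0.64 ± 0.05 (SE; adjusted p = 1.13e-06, limma), or 1.56-fold lower, and -0.70 without UK-5099 replicate 3. C230096K16Rik, a single-exon transcript annotated inside a Klf3 intron on the same strand, stood at 24.5 ± 6.63 and 73.9 ± 14.4 normalized counts (SD, n = 3), or 2.96-fold lower (adjusted p = 0.000206, limma). Because of this position its reads cannot be told apart from those of unspliced Klf3 RNA. Gm20033, which overlaps Klf3 exons on the opposite strand, stood at 6.71 ± 2.65 against 18.6 ± 7.13 normalized counts (SD, n = 3). It passed the low filter only through the 3-inhibitor group, and because it shares 404 exon bases with Klf3 and no strand setting is given, its reads cannot be told apart from those of Klf3.

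Klf10, a gene that TGF-beta induces early and whose product recruits SIN3, was the only KLF among the 10 that was higher with UK-5099. It stood at 1235, 1103 and 1201 normalized counts with UK-5099 and at 800.9, 797.1 and 844.1 with the 3 inhibitors, with no overlap. The log2 fold change was 0.53 ± 0.06 (SE; adjusted p = 1.25e-05, limma), or 1.45-fold higher. The related gene Klf13 was level, at 2593, 2461 and 2734 against 2596, 2476 and 2549 normalized counts. Its log2 fold change was 0.03 ± 0.05 (SE; adjusted p = 0.629, limma), with a 95% interval from -0.08 to 0.14.

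**Figure D2:**
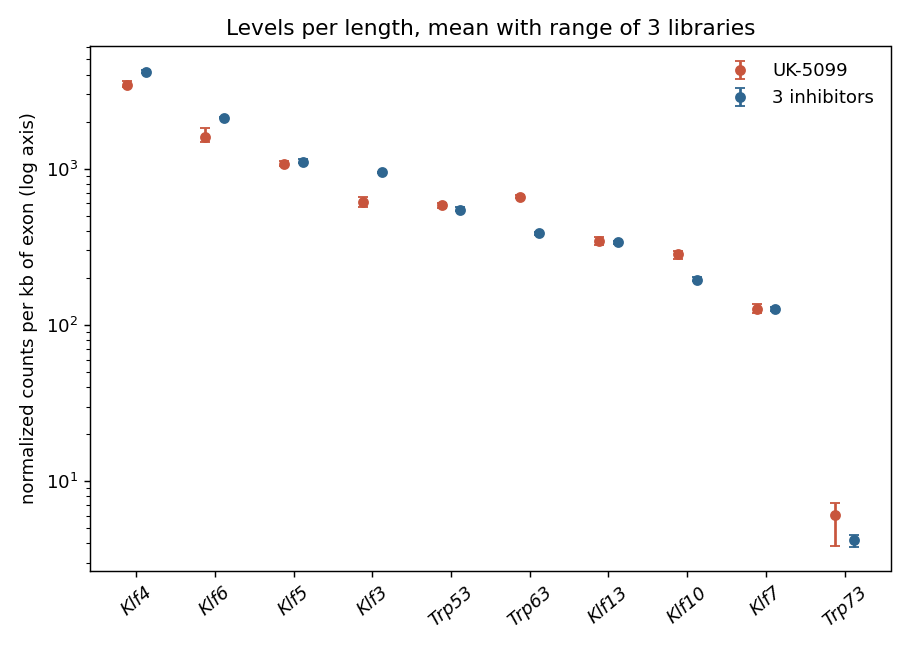
Level of each of the 10 genes in normalized counts per kb of exon (y axis, log scale), as the mean (point) and range (bar) of 3 libraries for UK-5099 (red) and the 3 inhibitors (blue). Klf4 is at the top in both groups, Trp73 at the bottom, and Trp63 lies above Trp53 with UK-5099 and below it with the 3 inhibitors on this scale, which uses the union of exons.

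The order of levels per kb with the 3 inhibitors was Klf4 (4173), Klf6 (2124), Klf5 (1111), Klf3 (949), Trp53 (547), Trp63 (386), Klf13 (337), Klf10 (195), Klf7 (126) and Trp73 (4.20), in normalized counts per kb. The ranges of neighbours in this order did not overlap. With UK-5099 the order was Klf4 (3453), Klf6 (1597), Klf5 (1071), Trp63 (658), Klf3 (611), Trp53 (583), Klf13 (345), Klf10 (282), Klf7 (127) and Trp73 (6.03). There Trp63 overlapped Klf3, and Klf3 overlapped Trp53, while the other neighbours were apart. The ratio of Klf4 to Trp63 per kb was 5.25 ± 0.348 with UK-5099 against 10.8 ± 0.197 (SD, n = 3; two-sided exact permutation p = 0.1, the least possible).

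UK-5099 replicate 3 had the highest value of its group for 7 of the 10 genes: Trp73, Trp53, Klf3, Klf4, Klf5, Klf6 and Klf13. On the log2 scale it lay above the mean of replicates 1 and 2 by 0.47 for Trp73, 0.28 for Klf6 and 0.17 for Klf3. Over all genes tested the median of this difference was 0.03 and the 75th percentile 0.14. Klf4 (0.12), Klf5 (0.11), Klf13 (0.11) and Trp53 (0.07) lay below that percentile. For Trp63 the replicate lay at -0.04. The median of the same difference over 16 tested immediate early genes was 0.17. Other lists described below were shifted too, so this was not particular to immediate early genes. The median was 0.21 for the other KLF genes, 0.15 for TGF-beta response genes and 0.12 for genes linked to KLF4. For SP genes it was -0.02 and for basal markers -0.005. UK-5099 replicate 3 is the shallowest library, and the part of its depth in these values was not tested.

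The rest of the KLF family was measured beside them. The family has 17 genes in the table, of which 14 were tested, 2 were higher with UK-5099, 7 were lower and 5 did not pass the threshold, against 27.2% higher and 26.6% lower of all genes. Of the 7 lower genes Klf2 passed the low filter only through the group where it was high. The median log2 fold change of the 14 was -0.21. Among the CtBP-binding repressors, Klf12 went opposite to Klf3, at 251.4 ± 24.2 against 134.8 ± 17.04 normalized counts (SD, n = 3), a log2 difference of 0.90 ± 0.12 (SE), and Klf8 was not called (0.44, adjusted p = 0.287, limma). The ratio of Klf12 to Klf3 per kb was 0.0590 ± 0.00556 with UK-5099 against 0.0204 ± 0.00272 (SD, n = 3), without overlap (two-sided exact permutation p = 0.1, the least possible). Among the SIN3-binding repressors, Klf9 (-0.42) and Klf11 (-0.51) were lower on the log2 scale, opposite to Klf10, and Klf16 was not called (-0.16). Klf16 passed the threshold without UK-5099 replicate 3 (-0.24, adjusted p = 0.00591) and with median centring (-0.24, adjusted p = 0.0271), in fits with limma. Klf15 was lower as well (-0.30). Both repressor subgroups therefore held members that rose and members that fell.

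Klf2, a factor of endothelium and lymphocytes, had the largest log2 fold change of the family, -3.21 ± 0.45 (SE). With a pseudocount of 5 it was -2.32, and -3.43 with limma-voom on recovered reads, so the fold of this gene depended on the setting. It rested on 1, 4 and 5 recovered reads in the UK-5099 replicates and 38, 44 and 35 in the others. Klf2 passed the low filter only through the 3-inhibitor group, as did Tie1 and Cd74, so the direction of these 3 genes was fixed by the filter. The endothelial markers Tie1 (5.51 ± 0.614 against 41.2 ± 7.88 normalized counts) and Vwf (49.9 ± 5.84 against 127 ± 11.5) and the leukocyte marker Cd74 (6.60 ± 1.32 against 27.7 ± 6.64) were lower in the same libraries, and their part in the Klf2 value was not tested. Klf1 and Klf17 were below the filter, and Klf14 was at 0 in every library.

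**Figure D3:**
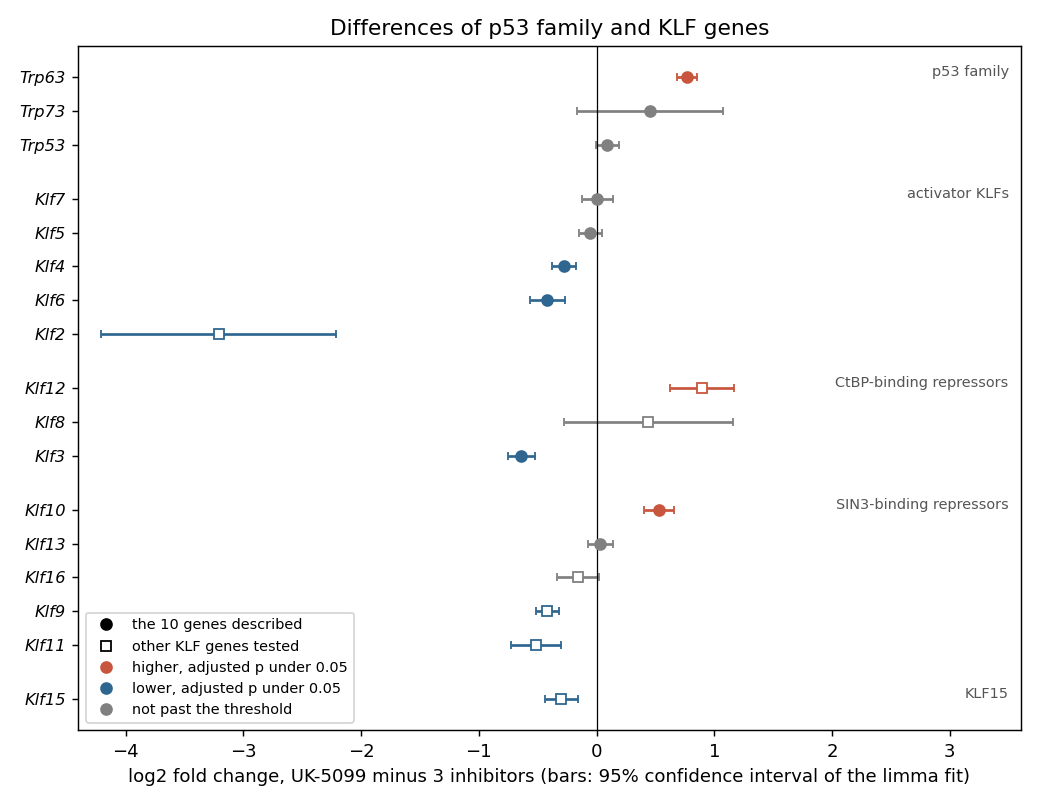
Log2 fold change, UK-5099 minus 3 inhibitors (x axis), of 3 p53 family genes and 14 KLF genes by subgroup, with 95% confidence intervals; filled circles are the 10 genes described, open squares the other KLF genes, red higher, blue lower and grey not past the threshold. Klf12 and Klf3, and Klf10 and Klf9, lie on opposite sides of 0 within their subgroups.

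Added over the 17 genes, KLF mRNA per kb stood at 8955 ± 548 with UK-5099 against 10894 ± 142 normalized counts per kb (SD, n = 3), with no overlap (two-sided exact permutation p = 0.1, the least possible). The share of Klf4 in this sum was alike, 38.6 ± 0.407% and 38.3 ± 0.520% (two-sided exact permutation p = 0.6). The share of Klf3 was 6.82 ± 0.138% with UK-5099 and 8.71 ± 0.153% with the 3 inhibitors, and that of Klf6 was 17.8 ± 0.956% and 19.5 ± 0.347%. Klf5 took 11.97 ± 0.211% and 10.2 ± 0.172%, Klf10 3.16 ± 0.212% and 1.79 ± 0.0747%, and Klf13 3.85 ± 0.0922% and 3.10 ± 0.0578%. Klf9 took 10.6 ± 0.0746% and 11.6 ± 0.0894%, and Klf7 1.42 ± 0.133% and 1.16 ± 0.0137%. Shares of Klf3, Klf6, Klf5, Klf10, Klf13, Klf9 and Klf7 each had no overlap between the groups (two-sided exact permutation p = 0.1, the least possible). Since the sum was lower with UK-5099, a gene at an equal level has a higher share there. The levels of Klf5, Klf13 and Klf7 themselves were not called. Of the related SP factors 5 of 9 were tested: Sp4 was lower (-0.52), and Sp1, an activator expressed in most cells, and Sp6 were higher (0.18 and 0.92). With median centring both lost their calls (Sp1 0.0870, adjusted p = 0.0728, and Sp6 0.83, adjusted p = 0.0579, limma), and Sp6 also lost it when 1 of 4 libraries was left out, UK-5099 replicates 1 and 2 and 3-inhibitor replicates 2 and 3 (adjusted p from 0.0535 to 0.168). The call of Sp6 ended with no low-value filter as well (adjusted p = 0.0960, limma).

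The profiles nearest to 3 of the genes were sought by the root mean square difference of gene-centred log2 values over the 6 libraries. Nearest to Trp63 were Prmt1, an arginine methyltransferase, Lyar and Rnaseh2a, a subunit of ribonuclease H2, at 0.020, 0.021 and 0.027 on the log2 scale. Nearest to Klf4 were Ptpn13, Ppp3r1 and Lsm14b, at 0.011, 0.011 and 0.012. Nearest to Klf3 were Msln, which encodes mesothelin, Ahr, the aryl hydrocarbon receptor, and Zfp592, at 0.013, 0.016 and 0.018. With 2 groups such likeness mostly reflects a like difference between them.

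Genes commonly placed downstream of p63 in epithelia were mostly higher with UK-5099. Of 37 listed, 34 were tested, 23 were higher and 2 lower, with a median log2 fold change of 0.41. With median centring 22 were higher and 5 lower. The 23 are read against 27.2% higher in all genes, and since basal and squamous genes were already known to be higher in these libraries, the count is no independent evidence. The desmosomal cadherin Dsc3 was 11.6-fold, the tight junction protein Cldn1 4.25-fold, the basal keratin Krt14 5.66-fold and its partner Krt5 3.01-fold higher. Each of these exceeded the 1.70-fold of Trp63 itself. The growth factor receptor Fgfr3 (1.71-fold) and the integrin chain Itga3 (1.22-fold) were lower, and the basal keratin Krt15 was not called (-0.07, adjusted p = 0.303, limma). Krt15 fell past the threshold with median centring (-0.16, adjusted p = 0.0183) and in no other alternative run. Krt5, Krt14 and Krt15 were also counted among the basal markers above.

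All 17 listed regulators of p63 and p73 protein were tested, and 4 were higher and 5 lower (median log2 fold change -0.01), near the 27.2% and 26.6% of all genes. Ppp1r13l, which encodes the p53 family inhibitor iASPP and is itself a p63 target, was 1.40-fold higher. The ubiquitin ligase Nedd4 (0.10) and the SUMO protease Senp1 (0.12) were also higher. Both lost their calls without UK-5099 replicate 1 or 2, without any 3-inhibitor replicate and with the replicate block or median centring. They also lost them with no low-value filter and in limma without a trend. Senp1 lost its call with robust estimation (adjusted p = 0.0516, limma) and without UK-5099 replicate 3 (adjusted p = 0.0632, limma) as well. Median centring gave 8 lower genes in this list. Among the lower genes were the ubiquitin ligases Itch (1.248-fold) and Mdm2 (1.27-fold), the p73 partner Yap1 (1.19-fold) and the kinase Abl1 (1.19-fold). Wwp1, a ubiquitin ligase for p63 and KLF5, was level (-0.01, adjusted p = 0.839, limma), and its sign turned with upper-quartile rescaling and without UK-5099 replicate 3.

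Of the genes that control p53 all 23 were tested, and 7 were higher and 11 lower (median log2 fold change -0.07). Of all genes 27.2% were higher and 26.6% lower, so the higher count was near the background and the lower count above it. The lower count ran from 9 to 13 over the fits, and no set test was made. The higher genes included Cdkn2a, whose p19ARF product inhibits MDM2 (4.17-fold, 266.6 ± 33.2 against 64.4 ± 18.6 normalized counts, SD, n = 3), and the checkpoint kinases Chek1 (2.32-fold) and Chek2 (1.73-fold). The lower genes included the acetyltransferase Ep300 (1.52-fold), the p53-binding ASPP genes Trp53bp2 (1.53-fold) and Ppp1r13b (1.48-fold), and the ubiquitin ligase Huwe1 (1.35-fold). Thus of the ASPP genes the inhibitory Ppp1r13l was higher and the stimulatory pair lower. Mdm4, a p53 inhibitor, was not called (-0.03, adjusted p = 0.668, limma), became lower with median centring (-0.11, adjusted p = 0.0440) and turned sign with upper-quartile rescaling and without 3-inhibitor replicate 1.

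Of the p53 target genes all 33 were tested, and 10 were higher and 9 lower, with a median log2 fold change of 0.02. These shares are near those of all genes, 27.2% higher and 26.6% lower. Sfn, which encodes 14-3-3 sigma, was 2.56-fold higher and the desmosomal gene Perp 1.89-fold higher, both also regulated by p63 in squamous epithelium. Ckap2 (1.63-fold) and the stress gene Gadd45a (1.35-fold) were higher too. The cell cycle inhibitor Cdkn1a (1.50-fold), the secreted stress factor Gdf15 (2.14-fold), Trp53inp1 (1.41-fold) and the apoptosis gene Bbc3 (1.56-fold) were lower. The cyclin G1 gene Ccng1 was level at 12458 ± 312 and 12382 ± 389 normalized counts, with a log2 fold change of 0.01 that turned sign with median centring and without UK-5099 replicate 2 or 3-inhibitor replicate 1 or 3. Mdm2 stands in 3 of these lists, and Perp, Ppp1r13l and Mdm4 each in 2.

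Of 18 genes of the multiciliated programme in which p73 acts, 8 passed the low filter. Among these 1 was higher, 2 were lower and 5 were not called, against 27.2% higher and 26.6% lower of all genes. Rsph1, a radial spoke gene, was 1.76-fold higher and the cell cycle factor E2f5 1.45-fold lower. Myb, an early multiciliogenesis factor, was lower (-0.84), a call that ended without UK-5099 replicate 1 (-0.78, adjusted p = 0.0592, limma) and without 3-inhibitor replicate 1 (-0.65, adjusted p = 0.0957). Rfx2 (0.22), Rfx3 (0.26), E2f4 (0.05) and Ccdc39 (-0.16, all on the log2 scale) were not called. Gmnc, Foxn4 and Cdc20b were at 0 in all libraries.

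Barrier genes commonly linked to KLF4 were mostly higher although Klf4 was lower. All 16 were tested, 12 were higher and 4 lower, against 27.2% higher and 26.6% lower of all genes. The median log2 fold change was 1.29, and this list too was written with the rise of squamous genes in these libraries known. Ivl (involucrin) was 5.11-fold, Sprr3 6.12-fold, Krt13 4.36-fold and the transglutaminase Tgm1 3.32-fold higher. The junction protein Cldn4 (1.43-fold), Gprc5a (1.71-fold), Aldh3a1 (1.34-fold) and Lor (1.82-fold) were lower. Klf4 and these 4 genes thus had the same sign and the other 12 the opposite one.

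Of the cofactors that KLF proteins recruit 21 were tested, and 8 were higher and 6 lower (median log2 fold change 0.05), against 27.2% higher and 26.6% lower of all genes. The histone deacetylase gene Hdac1 (1.38-fold), Set (1.39-fold), the acetyltransferase Kat2a (1.37-fold) and Parp1 (1.47-fold) were higher. The acetyltransferases Ep300 (1.52-fold), Crebbp (1.20-fold) and Kat2b (1.43-fold) and the corepressor Ncor1 (1.11-fold) were lower. Ep300 was also counted among the genes that control p53, and Wwp1 of this list among the regulators of p63 and p73 protein. Ctbp1, the partner of KLF3, was not called (0.07, adjusted p = 0.242, limma) and changed sign with median centring.

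Klf4, Klf6 and Klf10 belong to the immediate early genes, which growth factors and stress switch on within minutes to hours. Of 18 further genes of this kind 16 were tested, and 3 were higher and 10 lower (median log2 fold change -0.17), against 27.2% and 26.6% of all genes. The phosphatase gene Dusp1 (2.85-fold), the matricellular gene Ccn1 (2.097-fold), Jun (1.73-fold) and Atf3 (1.59-fold) were lower, as Klf4 and Klf6 were. Egr1 (2.40-fold), Fos (1.43-fold) and Myc (1.22-fold) were higher, as Klf10 was. The Fos call was weaker (adjusted p = 0.0240, limma), and its libraries overlapped between the groups. The 10 lower genes became 6 in the limma fit without a variance trend. There, and with median centring, 2 genes were higher in place of 3, and leaving out 1 library gave 2 to 3.

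Klf10 is also among the direct responses to TGF-beta. Of 16 other genes of this kind 15 were tested, 3 were higher and 9 lower (median log2 fold change -0.28), against 27.2% and 26.6% of all genes. The matricellular gene Ccn2 (2.53-fold), the SMAD corepressor Skil (1.57-fold) and the receptor gene Tgfbr1 (1.49-fold) were lower with UK-5099. The 3 higher genes were Id1 (4.36-fold), Id2 (1.42-fold) and Id3, which encode inhibitors of bHLH factors and respond above all to BMP. Id3 stood at 68.2 ± 14.0 against 6.47 ± 3.48 normalized counts (SD, n = 3). It passed the low filter only through the UK-5099 group, and its log2 fold change was 3.31, or 2.70 with a pseudocount of 5. Klf10 was higher, as the Id genes were.

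**Figure D4:**
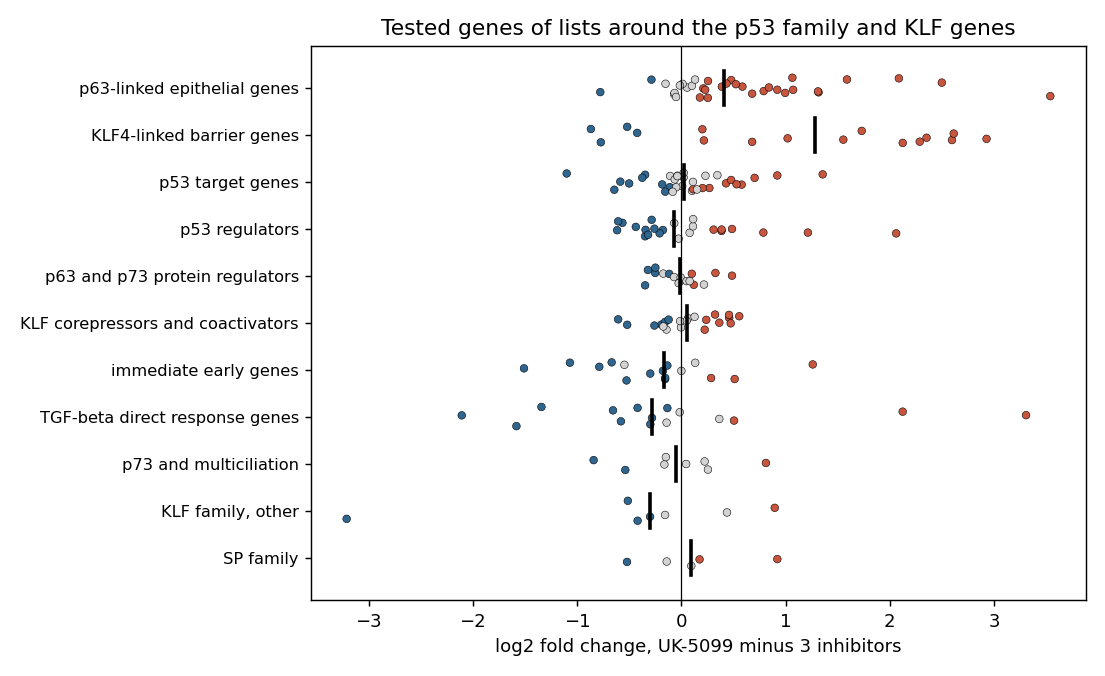
Log2 fold change, UK-5099 minus 3 inhibitors (x axis), of each tested gene in 11 lists, with red for higher, blue for lower, grey for not past the threshold and a black line at the list median. The medians of the p63-linked list (0.41) and the KLF4-linked list (1.29) lie right of 0, those of the immediate early (-0.17) and TGF-beta lists (-0.28) left of it.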

How the data were processed

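RNA of 6 libraries, 3 per group, was sequenced, and per the submitters' processing notes HISAT2 2.1.0, DESeq2 1.36.0 and the build GRCm39 were used, in roles not stated there. Not given in the sources used here: counter, annotation and strand setting. The deposited values are log2 of read counts per gene after scaling by library size factors, and a text mark stands where the count was 0. They were raised back to normalized counts. Rows repeating a gene (359) were dropped, 56748 genes remained, and whole reads were recovered, with at least 99.988% of nonzero values per library within 0.02 of a whole number. Genes with a mean of at least 10 (15704) were tested on log2(normalized count + 1) with limma 3.58.1 in R 4.3.3 (trend, two-sided, Benjamini-Hochberg threshold 0.05), so log2 fold changes are on that scale and folds are powers of 2 of them. Errors are SD over libraries or SE of the fit. The fit was tested on simulated data.

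The 10 genes and all lists were chosen with earlier results of these data known. Named were all 10 genes, up to 4 called genes per list and direction by smallest adjusted p, up to 4 uncalled genes by level, overlapping genes and the 3 nearest profiles of 3 genes. Some listed genes are not reported here by name. Replicates sharing a number were not treated as pairs. Exon lengths and overlaps came from GENCODE M21 without coordinates, and promoters from RefSeq (GRCm38.p6). Scripts used Python 3.11.15, pandas 2.3.3, numpy 2.4.6 and matplotlib 3.10.9.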

Additional observations from a re-analysis of the deposited data

How the results depend on the processing

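Upper-quartile rescaling, median centring, no low-value filter, a minimum mean of 50, pseudocounts of 0.5 and 5, limma without a trend or with robust estimation, limma-voom on recovered reads, the replicate number as a block, and leaving out each library were run. In all 16 fits Trp63 and Klf10 stayed higher and Klf3, Klf4 and Klf6 lower, past the threshold. With a 2-fold minimum 0 of the 10 genes and 1593 of all genes were called, against 5 and 8449. Leaving out 1 library gave 7336 to 9146 genes and 5 to 6 of the 10. Calls gained were Trp53 with upper-quartile rescaling (0.12), Klf5 with median centring (-0.14) and without UK-5099 replicate 3, and Trp73 without UK-5099 replicate 2. Without 1 library Trp73 ran from 0.30 to 0.74 on the log2 scale and Klf5 from -0.0896 to -0.0294. Signs turned in these cases: with median centring Klf7 (-0.0814), Klf13 (-0.0585), Ccng1 (-0.0797) and Ctbp1 (-0.0235), with upper-quartile rescaling Wwp1 (0.018) and Mdm4 (0.00438), and without 1 library Klf7 (range -0.0457 to 0.052), Klf13 (-0.00789 to 0.068), Wwp1 (-0.0229 to 0.00177), Mdm4 (-0.0528 to 0.00348) and Ccng1 (-0.0076 to 0.0349). The cause was not tested. Same-numbered libraries did not deviate together (correlations -0.017, 0.116 and -0.089 over genes), so the numbers were not taken as pairs. The fit with the replicate block called 8423 genes and 5 of the 10. Trp73 is limited by depth, at 23 to 38 reads per library.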
